A study of Mus musculus with 2 samples.

Results

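A set of 10 apical and basolateral transport genes of the proximal tubule, listed by name for glucose, phosphate and amino acid transport, were followed through a single-cell data set of the injured mouse kidney. All 10 genes were found among the 32285 genes of both count matrices. They were the glucose carriers Slc5a1, Slc5a2 and Slc2a2, the phosphate carriers Slc34a1 and Slc34a3, and the amino acid carriers Slc6a19 and Slc7a13 with Slc3a1, a heavy chain that partners amino acid carriers. The other members, Slc5a12 and Slc13a3, carry lactate and related monocarboxylates, and dicarboxylates, so the set is wider than its name. All 10 are protein-coding, and their positions below are those of GENCODE M21 on GRCm38, the build mm10 of the files. The rule lists the genes by name.

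Kidneys were taken on day 14 after ischaemia and reperfusion, made by clamping the renal artery on 1 side and followed by 4 tamoxifen injections in both groups. The control library came from mice without Cre, and the haplodeficient library from mice with Cdh5-CreERT2 and Phd3f/+, that is a tamoxifen-inducible Cre driven by the promoter of Cdh5, an endothelial gene, and 1 floxed copy of Phd3. The tubule cells described here are not endothelial. Each group was 1 library in labelled batch 1, the number of animals in a library was not stated, and the labels do not say whether the controls carried the floxed allele. No difference below has a replicate check, no test was run, and values in parentheses are exact 95% intervals that cover counting error only.

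The proximal tubule takes back nearly all filtered glucose, most phosphate and nearly all amino acids. Carriers on the luminal membrane couple uptake to sodium, and the sodium gradient is kept by the pump on the opposite membrane. Early segments carry bulk, low-affinity uptake, and the late straight segment finishes the work with high-affinity carriers. After ischaemia, injured tubule cells express Havcr1, the kidney injury molecule, and tubule cells are known to lose transport functions while they are injured.

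The matrices held 134190236 UMIs for the control and 114668145 UMIs for the haplodeficient kidney. After likely doublets were removed, 8737 control and 9222 haplodeficient cells remained, and 28 barcodes were shared by the cells of both libraries before that step. Proximal-tubule-like cells made up 34.4% (33.4 to 35.4) of control cells and 3.87% (3.49 to 4.29) of haplodeficient cells. Mitochondrial genes took a median of 23.0% of UMIs in the control and 6.61% in the haplodeficient proximal-tubule-like cells. Since mitochondrial UMIs enter the total, medians over the members were also taken without them.

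Cells were grouped by genes other than the 10 members. An early segment (clusters 8 and 3) comprised 1662 control and 269 haplodeficient cells, and a late segment (clusters 20 and 31) 393 and 15 cells. Cluster 5 held markers of both segments in 948 and 73 cells. A further cluster, number 9, was led by Havcr1, C3, Kcnip4 and Ubd and held 564 and 277 cells. It met 5 of 10 injured-tubule markers, 1 of 12 proximal tubule markers, 3 of 8 early-segment markers and 0 of 10 late ones. It is called the Havcr1-led cluster and not a proximal segment. Its proximal tubule markers, with 0 of 12 undetected, summed to 4327 CPM in control and 4575 CPM in haplodeficient cells, against 13257 and 10988 CPM in the early segment. Cells of the control library outnumbered those of the haplodeficient library in each of these clusters, so a cluster may in part be that library.

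**Figure D1:**
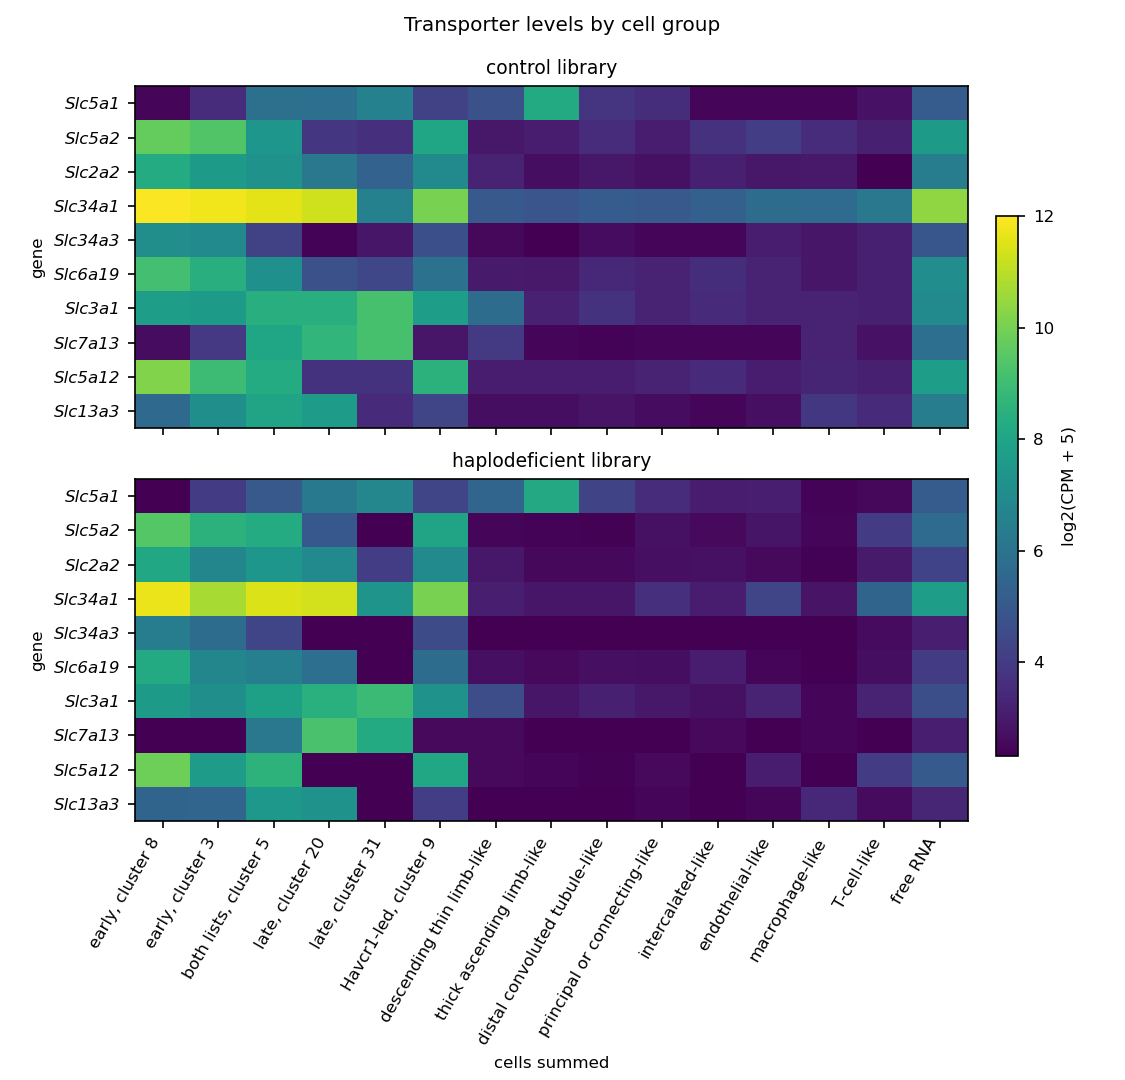
Levels of the 10 transporters as log2 of CPM (counts scaled by the summed counts of the group) plus 5, by gene (rows) and by summed cells (columns), with the control library above and the haplodeficient library below. Slc34a1 was at 3900 CPM in control cluster 8, and Slc5a1 was at 300.04 CPM in control thick ascending limb-like cells.

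Levels are CPM, that is UMIs of a gene scaled by the summed UMIs of a group of cells. They were read along each gene, since 3′-end counts do not compare levels between genes.

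Slc5a2 encodes SGLT2, the luminal low-affinity sodium-glucose carrier. The gene lies on chromosome 7 from 128265657 to 128272430 (plus strand). Its level in the early segment was 800.3 CPM (787 to 814) in control cells, against 616 CPM (583 to 651) in haplodeficient cells. It was 163 and 306 CPM in cluster 5, 8.98 and 15.3 CPM in the late segment, and 262 and 245 CPM in the Havcr1-led cluster. The late level rested on 31 control UMIs, of which 57.2% could be free RNA, and 3 haplodeficient UMIs. In the control library the early segment was thus 89.1-fold (62.7 to 131) above the late one, and in the haplodeficient library 40.3-fold (13.8 to 196).

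Slc2a2 encodes GLUT2, the basolateral glucose exit. Slc2a2 lies on chromosome 3 from 28697903 to 28731359 (plus strand). It stood at 281 CPM in the control and 232 CPM in the haplodeficient early segment, against 61.1 and 71.4 CPM in the late segment. The ratio of early to late was 4.59 (4 to 5.29) and 3.25 (1.92 to 5.99), so the decline along the tubule was far smaller than that of Slc5a2.

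Slc5a1 encodes SGLT1, the high-affinity luminal carrier of the late segment. Slc5a1 lies on chromosome 5 from 33104219 to 33162870 (plus strand). It ran the other way, with 1.96 and 2.84 CPM in the early segment, 54.7 and 27.4 CPM in cluster 5, and 61.7 and 86.7 CPM in the late segment. In the control library the late segment was 31.4-fold (21.9 to 46.3) above the early one. Most of its UMIs lay outside the proximal tubule. Thick ascending limb-like cells held 57.4% of its control UMIs and 74.4% of its haplodeficient UMIs, at 300.04 CPM (289 to 311) and 283 CPM (275 to 292). Descending thin limb-like cells had 21.1 and 39.6 CPM. In all, 75.4% of its control UMIs lay outside the proximal tubule and Havcr1-led clusters, against 1.33% to 5.19% for the other 9 members. In the haplodeficient library it was 97.7%, against 2.77% to 20.5% for the others, with Slc3a1 and Slc13a3 (19.7%) the highest of these.

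Slc34a1 encodes NaPi-IIa, the main luminal phosphate carrier. The gene lies on chromosome 13 from 55398187 to 55415592 (plus strand). Its level was 3816 CPM in the control and 2927 CPM in the haplodeficient early segment, 3088 and 2863 CPM in cluster 5, and 1944 and 1560 CPM in the late segment. The early-to-late ratio was 1.96 (1.91 to 2.01) and 1.88 (1.67 to 2.11). On the log2 scale this was 0.97 and 0.91, under 2-fold, but 1.17 and 1.28 with a minimum of 1000 UMIs, 5.31 and 4.60 with a mitochondrial limit of 25%, and 5.26 and 4.64 at Leiden resolution 2. The late value hides 2 unlike clusters. Cluster 20, led by Kap and Acsm3, held 2527 and 2606 CPM, and cluster 31, led by Akr1c18, Serpina1f and Slc22a19, held 89.7 and 155 CPM. Havcr1 also differed, at 9.90 and 80.0 CPM in cluster 20 and at 395 and 406 CPM in cluster 31. Segment and Havcr1 level therefore cannot be told apart in cluster 31, for this or any other member. Slc34a3 encodes NaPi-IIc, a second luminal phosphate carrier, and was highest in the early segment. Slc34a3 lies on chromosome 2 from 25228898 to 25234364 (minus strand). It had 130 and 71.8 CPM there and 0.869 CPM in the control late segment, from 3 UMIs, of which 78.3% could be free RNA. In the haplodeficient library it had 0 UMIs in 15 late cells, so the early segment was at least 4.70-fold higher, against a floor of 3 counts in that group (the exact interval starts at 3.77).

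Slc6a19 encodes B0AT1, the luminal carrier of neutral amino acids. Slc6a19 lies on chromosome 13 from 73679745 to 73704865 (minus strand). It had 503 and 251 CPM in the early segment, 140 and 85.3 CPM in cluster 5, and 20 and 30.6 CPM in the late segment, a ratio of early to late of 25.1 (19.8 to 32.3) and 8.20 (3.74 to 22.5). Slc3a1 encodes rBAT, the heavy chain of the cystine and basic amino acid exchanger, and was higher in the late segment, at 392 against 203 CPM in control cells, and at 403 against 175 CPM in haplodeficient cells. Slc7a13 encodes a light chain known to pair with rBAT in the late segment. Slc7a13 lies on chromosome 4 from 19818725 to 19842218 (plus strand). It had 3.25 CPM in the control early segment and 446 CPM (424 to 469) in the late one, a 137-fold difference. In the haplodeficient library it had 0 UMIs in the 269 early cells and 464 CPM (374 to 570) in the late cells, at least 327-fold higher against the same floor (the exact interval starts at 261). Slc3a1 lies on chromosome 17 from 85028376 to 85064236 (plus strand). It was highest in cluster 31 in both libraries, at 578 and 478 CPM, while its control level in cluster 20, 333 CPM, was that of cluster 5, 335 CPM.

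Slc5a12 encodes SMCT2, a low-affinity lactate carrier. The gene lies on chromosome 2 from 110597298 to 110647779 (plus strand). It had 1009 and 751 CPM in the early segment, 309 and 380 CPM in cluster 5, 8.40 CPM in the control late segment and 0 UMIs in the haplodeficient one, where the early segment was at least 49.1-fold higher (the exact interval starts at 39.9). Slc13a3 encodes NaDC3, the basolateral dicarboxylate carrier. Slc13a3 lies on chromosome 2 from 165405028 to 165473230 (minus strand). It was highest in cluster 5, with 244 and 174 CPM, beside 64.3 and 38.3 CPM in the early and 152 and 86.7 CPM in the late segment. Its late level came from cluster 20, with 197 and 151 CPM, since cluster 31 held 6.06 CPM in control cells and 0 UMIs in haplodeficient cells. The direction of Slc13a3 between early and late turned with a mitochondrial limit of 25% and with finer clusters (Leiden resolution 2), to log2 ratios of 2.41 and 3.47 in control cells. Both settings formed the clusters anew, so the segments need not hold the same cells.

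By the 2-fold rule (an absolute log2 ratio of at least 1 after 5 CPM was added), 5 of the 10 members were higher in the early segment of the control library and 3 in the late one, against 15.1% and 5.86% of all genes with enough counts. In the haplodeficient library 5 and 4 members passed, against 12.8% and 6.97% of genes. Enough counts meant a mean level of 50 CPM or more and 30 UMIs or more, which 9 and 8 of the 10 members met. Of these, 5 were higher early and 2 late in the control library, and 4 and 3 in the haplodeficient library. With a mitochondrial limit of 25%, 7 members were higher early and 3 late in both libraries, and with a minimum of 1000 UMIs 6 were higher early in both, beside 2 and 3 late. At Leiden resolution 2 the counts were 7 early in both, beside 2 and 3 late, and with cells thinned to 1000 UMIs 4 haplodeficient members were higher early.

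**Figure D2:**
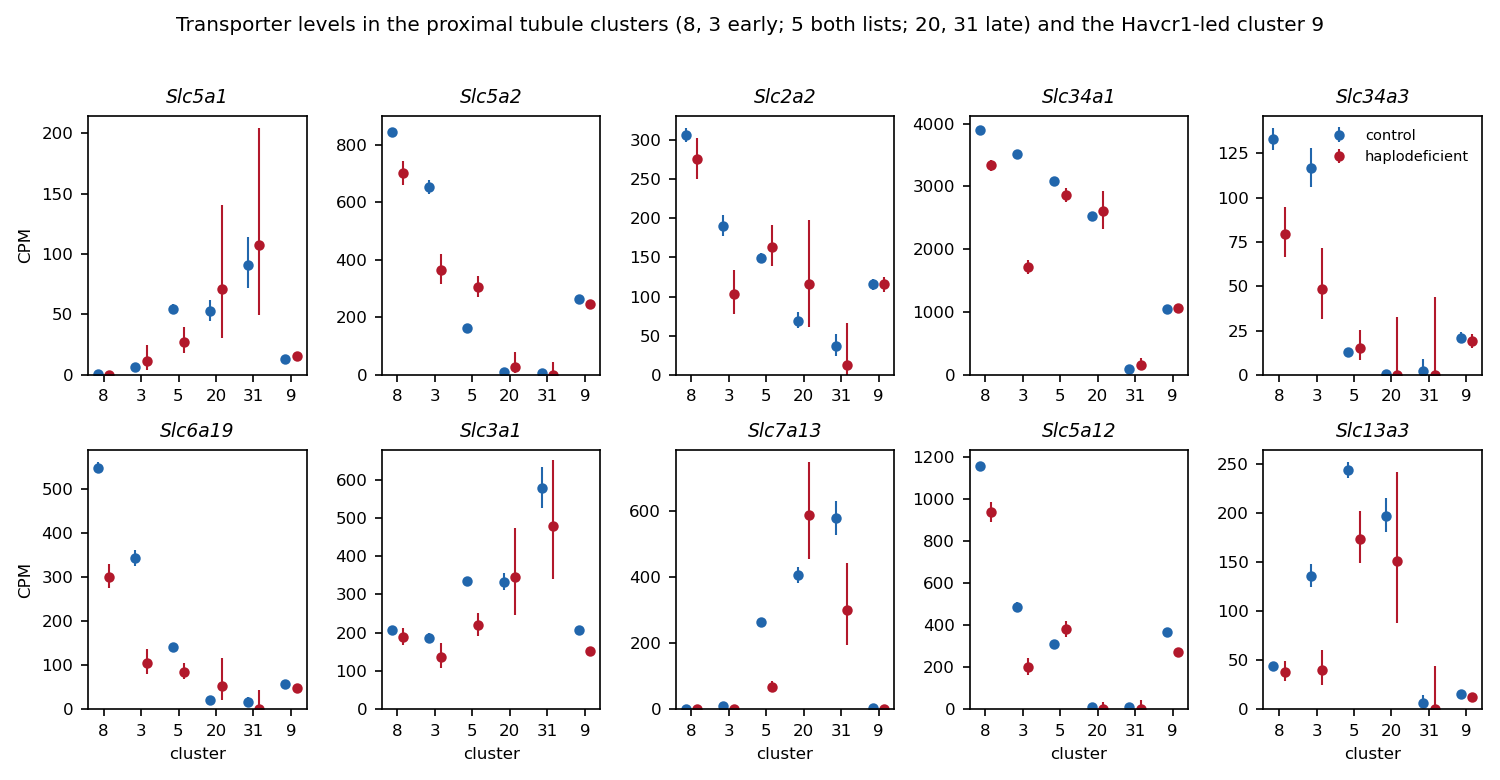
CPM of each transporter (one panel per gene, linear axis from 0) in the 6 clusters, for the control (blue) and haplodeficient (red) libraries, with exact 95% Poisson intervals as bars. Slc5a2, Slc6a19, Slc34a3 and Slc5a12 are highest in the early cluster 8, and Slc7a13 is highest in the late clusters, number 31 in the control and number 20 in the haplodeficient library.

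The regulatory windows of 7 members were in the RefSeq table (build GRCm38.p6), from 250 bases before to 30 bases after the annotated start, and were searched on both strands for the letters CAAAGTCCA, a site of HNF4 factors. Capitals mark the match. The window of Slc3a1, at chr17:85028097-85028376 on the plus strand, is shown because it was the 1 window of the 7 with a match.
Slc3a1: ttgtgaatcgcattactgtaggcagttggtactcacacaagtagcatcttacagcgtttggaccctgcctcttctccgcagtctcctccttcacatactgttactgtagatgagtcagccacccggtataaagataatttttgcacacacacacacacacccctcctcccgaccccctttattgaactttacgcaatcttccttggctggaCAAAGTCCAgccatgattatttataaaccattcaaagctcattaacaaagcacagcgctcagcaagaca
The letters were found in 0.457% of all 32851 windows of that length, and a match is a description of sequence only.

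Cells of the proximal and Havcr1-led clusters were then split by Havcr1, with 2 or more UMIs called positive and 0 negative. There were 518 positive and 2817 negative control cells, and 167 and 411 haplodeficient cells, while 232 and 56 cells with 1 UMI were left out. A share of 14.5% (13.4 to 15.7) of control and 26.3% (23.0 to 30.0) of haplodeficient cells was positive, beside 0.131% of control macrophage-like cells and 0 of 1328 haplodeficient ones (0 to 0.277%). These shares pool clusters in unlike proportions. In the Havcr1-led cluster the share was 62.1% (57.9 to 66.1) of control and 49.1% (43.1 to 55.1) of haplodeficient cells. It was 2.23% and 6.32% in the early segment, 9.60% and 9.59% in cluster 5, and 10.2% and 46.7% in the late segment. Positive cells were deeper, with a median of 17720.5 against 9619 UMIs for control and 16933 against 6799 UMIs for haplodeficient cells, and had fewer mitochondrial UMIs, 8.91% against 23.1% and 4.52% against 6.14%. With cells thinned to 1000 UMIs the median of the members moved to -1.34 and -1.22, and without mitochondrial UMIs the control median moved to -1.39. Leukocyte markers summed to 1145 CPM in positive and 640 CPM in negative control cells, and to 1467 and 1316 CPM in haplodeficient cells, with 13 to 21 of the 50 at 0. Apoe gave 906 and 563 CPM of the control sums. The 12 proximal tubule markers were also lower in positive cells, at 6821 against 14342 CPM in control and 5179 against 9852 CPM in haplodeficient cells, with 0 of 12 undetected. The 10 injured-tubule markers, which include Havcr1 itself, were at 28567 against 4568 CPM and 28554 against 9709 CPM, mostly from Spp1. Havcr1 gave 772 and 644 CPM of the sums in positive cells. With 0 of 10 undetected in positive cells, the 1 of 10 undetected in negative cells was Havcr1, at 0 there by the split. The part of these markers in the members' ratios was not tested.

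In the control library Slc34a3 and Slc6a19 were furthest below their level in negative cells, and in the haplodeficient library Slc13a3 was. Slc6a19 had 70.2 CPM in positive and 325 CPM in negative control cells, a ratio of 0.216 (0.2 to 0.233), and 53.7 and 153 CPM in the haplodeficient library, a ratio of 0.351 (0.298 to 0.412). Slc34a3 had 14.6 and 76.4 CPM in the control, a ratio of 0.191 (0.162 to 0.225), and 16 and 47.3 CPM in the haplodeficient library, a ratio of 0.338 (0.249 to 0.454). Slc34a1 had 1386 and 3376 CPM, then 1055 and 2397 CPM, with ratios of 0.410 and 0.440. Slc5a2 had 198 and 502 CPM, then 219 and 453 CPM, with ratios of 0.395 and 0.484, and Slc5a12 ratios of 0.468 and 0.408. Slc13a3 had ratios of 0.384 (0.351 to 0.418) and 0.295 (0.22 to 0.39). These 6 members were at least 2-fold lower in positive cells in both libraries, against 3.37% of all control genes and 2.37% of all haplodeficient genes. Of the 10 members, 8 and 6 had enough counts by the rule above, and 5 and 4 of these were at least 2-fold lower.

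Slc2a2 was less far below, with ratios of 0.561 and 0.702. Slc7a13 had a ratio of 0.493 (0.455 to 0.533) in the control, which did not pass once 5 CPM was added, and of 0.868 (0.628 to 1.2) in the haplodeficient library. Slc3a1 had 274 CPM in positive and 251 CPM in negative control cells, and 172 and 169 CPM in the haplodeficient library, with ratios of 1.09 (1.05 to 1.14) and 1.02 (0.91 to 1.14). Slc5a1 was above its level in negative cells, with ratios of 1.55 (1.36 to 1.76) and 2.82 (1.86 to 4.38), from 34.8 against 22.4 CPM and 23.5 against 8.34 CPM. It alone passed 2-fold upward in the haplodeficient library, against 2.16% of genes with enough counts, which Slc5a1 itself did not have. Of the 6 members with enough counts there, 0 passed upward. Over all 10 members the median log2 ratio was -1.18 and -1.11, and over all genes with enough counts 0.24 and 0.04.

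**Figure D3:**
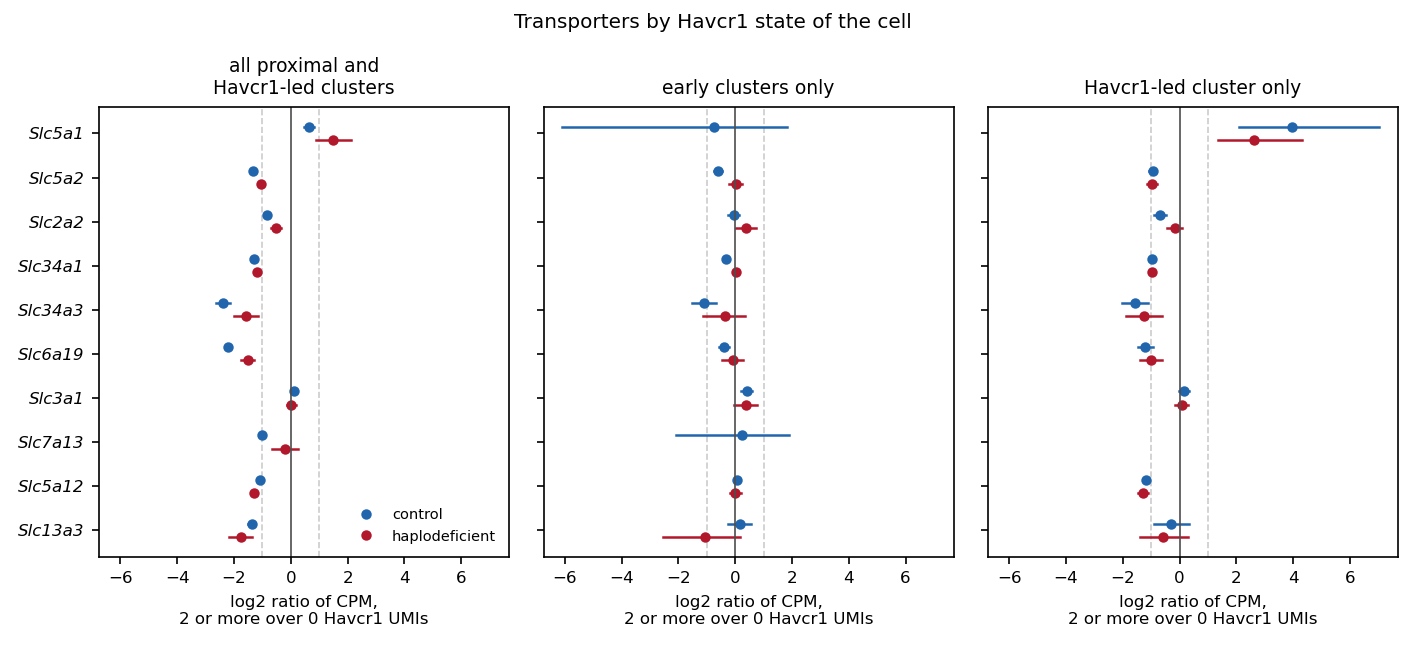
Log2 ratio of CPM in cells with 2 or more over cells with 0 Havcr1 UMIs (horizontal axis), by transporter, in both libraries, with exact 95% intervals as lines; dashed lines mark 2-fold, and members with 0 UMIs on a side or under 30 UMIs in all are not drawn. In the left panel (all clusters) 8 of 10 members are below 0 in both libraries. In the middle panel (early clusters) Slc5a2 and Slc34a1 are below 0 in the control at ratios of 0.652 and 0.806 and at 1.01 in the haplodeficient library, and in the right panel (Havcr1-led cluster) Slc34a1 is at 0.508 and 0.506.

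Of the positive cells, 350 of 518 control cells and 136 of 167 haplodeficient cells lay in the Havcr1-led cluster, so the ratios were also taken by cluster. Within the early clusters, 37 and 17 positive cells gave a median log2 ratio of -0.12 in control cells and 0.00 in haplodeficient cells. Of the 10 members, 1 was at least 2-fold lower in the control, Slc34a3 with a ratio of 0.469 (0.347 to 0.620), and 0 in the haplodeficient library, against 0.518% and 2.28% of genes. Slc5a2 stood at 0.652 (0.591 to 0.719) and 1.01 (0.86 to 1.18) there, Slc34a1 at 0.806 and 1.01, and Slc5a12 at 1.05 and 1.01. Within the Havcr1-led cluster, negative cells numbered 168 and 117. The median log2 ratio there was -0.80 in control cells and -0.66 in haplodeficient cells, with 7 of the 10 members lower in each. The ratios of Slc34a1 were 0.508 (0.486 to 0.53) and 0.506 (0.478 to 0.536), and those of Slc5a12 0.445 and 0.411. In that cluster, 3 members were at least 2-fold lower in control cells and 1 in haplodeficient cells, against 0.43% and 0.529% of genes with enough counts. Of the 6 members with enough counts in each library, 2 and 1 were lower. Slc5a1 was the 1 member at least 2-fold higher in both, against 0.773% and 0.823% of genes with enough counts. It was 15.7-fold (4.26 to 131) higher from 123 against 2 control UMIs, and 6.21-fold (2.54 to 19.7) from 69 against 5 haplodeficient UMIs. Free RNA could account for 100% of those 2 control UMIs and 27.0% of those 5 haplodeficient UMIs. Slc5a1 itself did not have enough counts in either library, and 0 of the 6 members that did passed upward.

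Without the Havcr1-led cluster the median of the 10 members was -0.50 and -0.33. The 6 members at least 2-fold lower in each library became 3 and 0, against 1.07% and 1.79% of genes, and 1 (Slc5a1) and 2 (Slc5a1 and Slc7a13) were at least 2-fold higher, against 2.9% and 1.5% of genes. Of the 8 members with enough counts in each library, 2 and 0 were lower and 0 and 1 higher. The 3 control members still lower were Slc5a2 at 0.332, Slc34a3 at 0.202 and Slc6a19 at 0.368. The ratio of Slc7a13 turned, to 1.32 (1.22 to 1.43) and 3.1 (2.23 to 4.3). Positive and negative cells here held unlike mixes of segments. In the control, 37 positive cells were early, 40 late and 91 from the cluster spanning both, against 1552, 329 and 768 negative cells. In the haplodeficient library these were 17, 7 and 7, against 230, 8 and 56. Within the control early clusters, Slc5a2 stood at 536 against 821 CPM, Slc34a3 at 63.6 against 136 CPM and Slc6a19 at 392 against 514 CPM. The part of this mix in the ratios was not tested.

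The haplodeficient library was set against the control segment by segment. In the early segment every member with at least 100 UMIs in both libraries was lower in the haplodeficient library, by ratios of 0.499 (0.457 to 0.545) for Slc6a19, 0.555 (0.468 to 0.654) for Slc34a3, 0.744 for Slc5a12, 0.767 (0.747 to 0.787) for Slc34a1, 0.770 for Slc5a2, 0.827 for Slc2a2 and 0.865 (0.775 to 0.962) for Slc3a1. Slc13a3, from 81 haplodeficient UMIs, had a ratio of 0.595 (0.469 to 0.746). Of the 10 members 0 passed 2-fold, against 0.949% of all genes lower, and 8 had enough counts. The median log2 ratio of the members was -0.40, or -0.38 with the absent Slc7a13 set at its floor, and that of all genes 0.22. Without mitochondrial UMIs these were -0.65 and -0.02, a lowering of both medians. The 50 leukocyte markers summed to 833 CPM in the control and 1274 CPM in the haplodeficient early cells, with 15 and 22 of them at 0, of which Apoe gave 760.5 and 1037 CPM. The 8 early-segment markers were lower in the haplodeficient cells too, at 5395 against 7785 CPM, while the 10 late markers were at 578 against 251 CPM and the 10 injured-tubule markers at 7685 against 5204 CPM. The part of these markers in the ratios was not tested.

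The early difference was unlike in its 2 clusters. In cluster 8, with 784 and 108 cells of a median of 17337 and 9566.5 UMIs, the ratio was 0.855 (0.831 to 0.88) for Slc34a1, 0.833 for Slc5a2 and 0.908 (0.803 to 1.02) for Slc3a1, while Slc6a19 stood at 0.549 and Slc34a3 at 0.598, and 0 members passed 2-fold, against 0.811% of genes. In cluster 3, with 878 and 161 shallow cells of a median of 2866.5 and 2590 UMIs, the ratio was 0.488 (0.456 to 0.522) for Slc34a1, 0.306 (0.23 to 0.4) for Slc6a19 and 0.412 for Slc5a12. Those 3, with Slc34a3 at 0.417 and Slc13a3 at 0.29, were the 5 members at least 2-fold lower, against 5.06% of genes. Slc7a13 had 0 haplodeficient UMIs and was at least 1.82-fold lower (the exact interval starts at 1.41). Other markers moved with that cluster. The 12 proximal tubule markers summed to 15190 CPM in the control and 9447 CPM in the haplodeficient cells of cluster 3, with 0 of 12 undetected in either. The 10 injured-tubule markers summed to 5680 and 12866 CPM, of which Spp1 gave 5471 and 12108 CPM, and 50 leukocyte markers to 806 and 1871 CPM, of which Apoe gave 735 and 1674 CPM, with 33 and 38 of the 50 at 0. Their part in the ratios was not tested.

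In cluster 5 the ratio was lowest for Slc7a13, at 0.259 (0.2 to 0.33), from 263 CPM (255 to 271) in control cells and 68 CPM (52.7 to 86.4) in haplodeficient cells. It was the 1 member of 10 past 2-fold lower, against 1.27% of genes. Slc5a1 was at 0.501 (0.328 to 0.734), Slc6a19 at 0.607 and Slc3a1 at 0.655 (0.569 to 0.75), while Slc5a2 was higher, at 1.88 (1.66 to 2.12), and Slc5a12 at 1.23 (1.10 to 1.37). In the late segment, where 15 haplodeficient cells stood for the group, Slc7a13 had a ratio of 1.04 (0.833 to 1.29) and Slc3a1 of 1.03 (0.809 to 1.29), Slc34a1 of 0.803 (0.713 to 0.9) and Slc13a3 of 0.572 (0.331 to 0.925). These pooled ratios mix clusters 20 and 31, which held 327 and 66 control but 8 and 7 haplodeficient cells. Within the clusters Slc34a1 was not lower, at the levels given above, and Slc13a3 was at 151 (88.1 to 242) against 197 CPM (181 to 215) in cluster 20, intervals that overlap. Slc7a13 was at 587 (454 to 747) against 405 CPM in cluster 20 and at 299 (193 to 441) against 577 CPM in cluster 31, opposite directions that the pooled ratio hides. A different mix of clusters in the late segment, or of early and late cells in cluster 5, which spans the segments, cannot be told apart from a change in each cell in these pooled ratios. Other markers also differed in the late cells. Injured-tubule markers summed to 5166 CPM in control and 22191 CPM in haplodeficient cells, of which Spp1 gave 4817 and 21161 CPM. Leukocyte markers summed to 374 and 1591 CPM, late markers to 5861 and 9709 CPM and proximal tubule markers to 16313 and 13885 CPM. Havcr1-positive cells were 10.2% and 46.7%. Their part in the ratios was not tested.

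In the Havcr1-led cluster the median log2 ratio of the members was -0.17. Slc34a1 had 1051 CPM (1031 to 1072) in control cells, against 1066 CPM (1038 to 1095) in haplodeficient cells, a ratio of 1.01 (0.981 to 1.05), and Slc2a2 a ratio of 0.999 (0.902 to 1.11). Slc5a2 had a ratio of 0.935, Slc3a1 of 0.737 (0.677 to 0.801) and Slc5a12 of 0.735 (0.690 to 0.783). Of the 10 members 0 passed 2-fold, against 0.377% of genes lower. Over all Havcr1-positive cells, 2 members did, Slc7a13 at 0.287 and Slc13a3 at 0.314, against 0.882% of genes, and over Havcr1-negative cells 4 did, Slc7a13 at 0.163, Slc5a1 at 0.372, Slc13a3 at 0.409 and Slc6a19 at 0.471, against 2.47% of genes. Those shares are over genes with enough counts. Of the members with enough counts, 0 of 6 passed in Havcr1-positive cells and 3 of 9 in Havcr1-negative cells. Both of these groups pool segments in different proportions in each library.

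**Figure D4:**
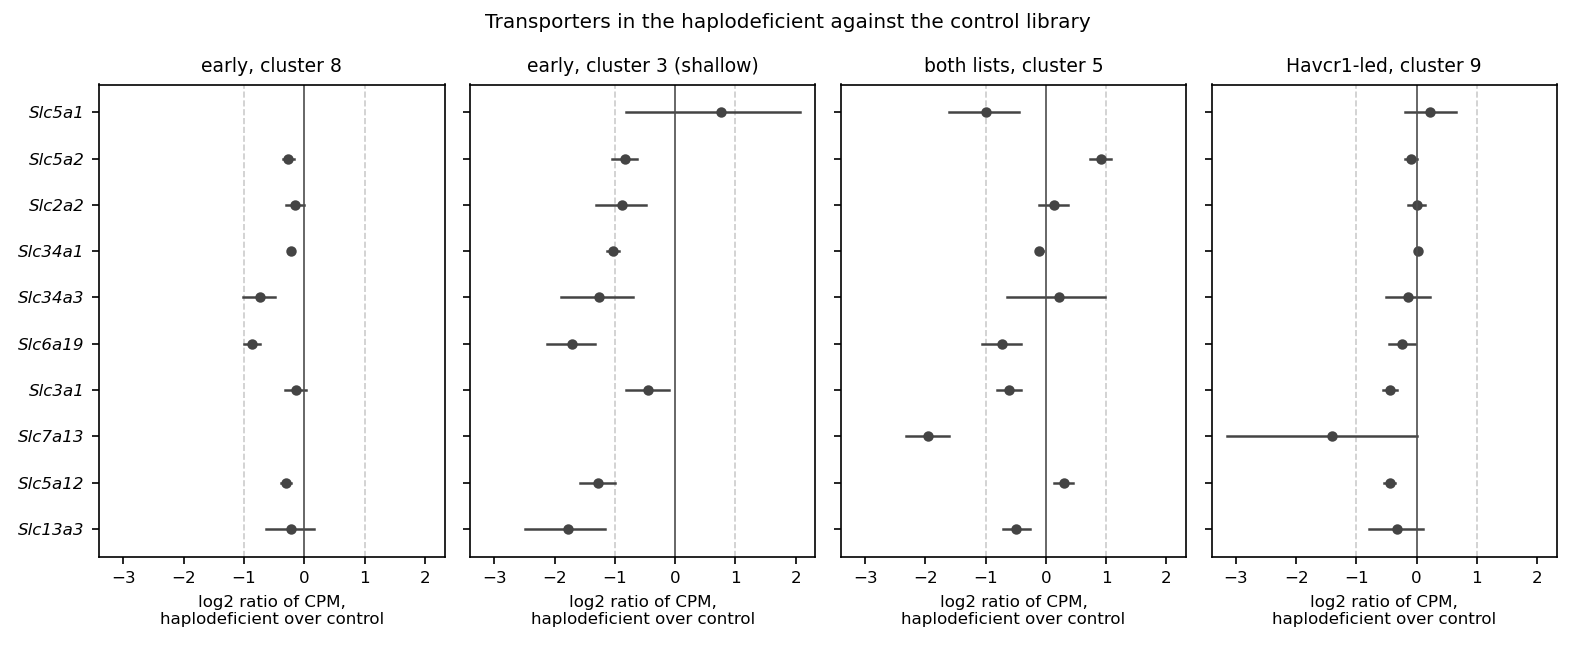
Log2 ratio of CPM in the haplodeficient over the control library (horizontal axis) for each transporter, in 4 clusters, with exact 95% intervals as lines and dashed lines at 2-fold; members with 0 UMIs on a side or under 30 UMIs in all are not drawn. The ratio of Slc34a1 is 0.488 in the shallow early cluster 3 and 1.01 in the Havcr1-led cluster, and that of Slc5a2 is above 1 in cluster 5 alone of these 4.

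The share of a member's UMIs that came from the Havcr1-led cluster was 7.49% of control and 35.7% of haplodeficient UMIs for Slc34a1, 12.8% and 42.0% for Slc5a2, 4.52% and 25.9% for Slc6a19, and 0.432% and 2.78% for Slc7a13. These shares depend on cell numbers as well as levels. The proximal tubule clusters held 3003 control and 357 haplodeficient cells, and the Havcr1-led cluster 564 and 277, where Slc34a1 was at 1051 and 1066 CPM.

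Free RNA, in barcodes of 1 to 100 UMIs, carried the tubule's transcripts at unlike levels in the libraries. Slc34a1 had 1347 CPM in the control and 209 CPM in the haplodeficient free RNA, Slc6a19 had 130 and 10.9 CPM, and Slc7a13 52.3 and 3.82 CPM, while Slc5a1 had 29.9 and 29.8 CPM. The background is visible in cells that should lack these carriers. After each cell was thinned to 1000 UMIs, Slc34a1 was found in 4.97% of control and 0.0829% of haplodeficient macrophage-like cells, beside 92.5% (91.1 to 93.8) and 74.1% (68.2 to 79.4) of early cells. Before thinning these shares were 16.8%, 1.43%, 94.1% and 82.5%, at median depths of 4741, 5328.5, 8003 and 4436 UMIs. By the estimate used here free RNA could account for 0.867% of the Slc34a1 UMIs in the control early segment, but for 37.4% of those of Slc5a1 and 39.5% of those of Slc7a13 there.

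Genes of the same pathways were read from lists of carriers and regulators. Between segments, Slc5a10, a mannose and fructose carrier, had 11.9 CPM in the early and 377 CPM in the late segment of the control library, and Slc7a12 and Slc6a18, both amino acid carriers, 1.07 against 280 CPM and 21.2 against 302 CPM. Slc16a10, the aromatic amino acid carrier, was higher early, with 178 against 15.4 CPM, as was Slc13a1, a sulphate carrier, with 1830.0 against 660.0 CPM. Slc5a8, a lactate carrier related to Slc5a12, ran opposite to it, with 6.79 against 328 CPM. Of the other amino acid genes with enough counts, 4 of 12 were 2-fold higher early and 3 late in the control, and 5 and 3 of 12 in the haplodeficient library, beside the 15.1% and 5.86%, and 12.8% and 6.97%, of all genes. Of 6 transcription factors with enough counts, 3 were 2-fold higher early in control and 2 in haplodeficient cells, among the former Maf with 933 against 215 CPM and Ppara with 118 against 29.3 CPM.

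By Havcr1 state, 3.37% of all control and 2.37% of all haplodeficient genes were 2-fold lower. Of 10 amino acid genes with enough counts in the control, 1 did, Slc6a20b at 62.0 against 131 CPM, and of 11 in the haplodeficient library 2 did, Slc16a10 at 64.5 against 156 CPM and Slc43a2 at 36.9 against 84.7 CPM. None of 7 and 5 transcription factors passed, with Hnf4a at 0.761 and 0.705 of its level in negative cells. None of the phosphate genes or of the sodium entry and pump genes passed either. Kl, the FGF23 co-receptor, had ratios of 0.579 and 0.583, Slc9a3, the sodium-proton exchanger, 0.570 in the control, and Fxyd2, a subunit of the sodium pump, 0.638 and 0.738. Between libraries in the early segment, 1 of 7 transcription factors passed, Ppara, a regulator of fatty acid oxidation, at 52.9 against 118 CPM, and 0 of 9 amino acid genes. Slc13a1 was at 2535 against 1830.0 CPM.

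Genes with the most similar profiles over 62 cluster-by-library sums (31 clusters) were named by Pearson's r of log2(CPM + 5), as a description, since the points share libraries, depth and free RNA. Slc2a2 was closest to Aadac (0.98) and Hnf4a (0.98), Slc34a1 to Miox (0.98), Slc5a12 to Slc7a9 (0.96), Slc6a19 to Cyp2d26 (0.97), Slc5a2 to Prodh2 (0.95), Slc34a3 to Spp2 (0.94) and Slc3a1 to Slc23a1 (0.97). The late member Slc7a13 was closest to Acsm3 (0.91), and Slc13a3 to Ces1f (0.92). Slc5a1 was closest to Rps6ka6 (0.86), Irx1 (0.83) and Eprn (0.83), and its closest other member was Slc3a1 at 0.26.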

How the data were processed

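Single-cell 3′ RNA was measured in 2 libraries of mouse kidney. The deposited values were raw UMI counts for each barcode. Per the file headers, Cell Ranger 4 wrote them, and the matrices still hold empty droplets. The build was mm10 per the submitters' processing notes, and the annotation is not given in the sources used here. Each matrix belongs to 1 labelled sample.

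Barcodes were kept from 500 UMIs and 200 genes upward and up to 50% mitochondrial UMIs, and the highest Scrublet scores (scanpy 1.11.5), at 0.8% per 1000 cells, were removed as doublets. Both libraries were clustered on 2000 variable genes without the members, the pathway lists and the mitochondrial genes (30 components, 15 neighbours, Leiden resolution 1, leidenalg 0.10.2). Clusters were named from marker lists, needing 3 markers in at least 10% of cells at 2-fold, a rule chosen once values were known. A segment was early or late where the shares of its markers differed by at least 20 percentage points.

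UMIs were summed by segment and library and scaled to CPM over all UMIs. Levels have exact Poisson, ratios exact conditional binomial and shares exact Clopper-Pearson 95% intervals. A 0 allows up to 3 counts. Log2 ratios follow the addition of 5 CPM, which understates the ratio of low genes. UMIs in barcodes of 1 to 100 UMIs gave the free RNA, and the free-RNA part of a group was the median over markers of other classes. The ratios, their intervals and the 2-fold call were tested on simulated counts with counting error only. Those counts held no variation between cells or libraries and no free RNA. Named genes were the 10 members, up to 3 genes with the largest log2 ratio in each pathway list, and the 3 most similar genes of each member. The members and lists were chosen with earlier results of these data known. With 1 library per group there was no test between groups. 1 listed gene is not reported here.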

Additional observations from a re-analysis of the deposited data

Results flagged for a closer look

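Slc5a2 was 1.88 times its control level in the haplodeficient cells of cluster 5, which holds markers of both segments, but 0.770 times in the early segment. The sign of the difference between libraries thus differed between these 2 groups of cells. A different mix of early and late cells in cluster 5 cannot be told apart from a change in each cell. The difference between the 2 groups of cells was not tested, since there was 1 library per group.

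Slc5a12 showed the same turn, at 1.23 in cluster 5 against 0.744 in the early segment and 0.735 in the Havcr1-led cluster, and that difference was not tested either. Cluster 5 held 948 control and 73 haplodeficient cells, and Slc7a13, a late gene, was at 0.259 there.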

How the results depend on the processing

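Of the 33 ratios of a member past 2-fold, 356 values under the alternatives were compared, of which 352 kept their direction and 320 stayed past 2-fold. The 4 that reversed were those of Slc13a3 between the early and late segment, at log2 ratios of 2.41 and 3.16 with a mitochondrial limit of 25% and 3.47 and 3.83 at Leiden resolution 2 (control and haplodeficient). Clusters were formed anew under both settings, so the segments need not hold the same cells.

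The median of the 10 members by Havcr1 state in the control library was -1.39 without mitochondrial UMIs, -1.27 with a mitochondrial limit of 25%, -1.23 with a minimum of 1000 UMIs and at Leiden resolution 2, -1.22 with free RNA subtracted, -1.34 with cells thinned to 1000 UMIs, -0.88 with 1 or more Havcr1 UMIs as positive, and -1.50 with 1 or more after thinning to 2000 UMIs. In the haplodeficient library it was -1.22 with cells thinned to 1000 UMIs, -0.89 with 1 or more Havcr1 UMIs and -1.26 after thinning to 2000 UMIs. Chosen after seeing the data, a limit of 15% mitochondrial UMIs gave -1.25 in the control, and leaving out the Havcr1-led cluster gave -0.50 and -0.33.

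The median between libraries in the early segment was -0.65 without mitochondrial UMIs, -0.27 with a minimum of 1000 UMIs, -0.34 at Leiden resolution 2, -0.68 with cells thinned to 1000 UMIs and -0.54 with equal weight for the 2 early clusters (added after seeing the data). In the late segment it was -0.53 with a mitochondrial limit of 25% and -0.49 at Leiden resolution 2, from 0.05. In Havcr1-positive cells it was -0.55 with 1 or more UMIs, -0.30 after thinning to 2000 UMIs and -0.29 without the late clusters and cluster 5, the last added after seeing the data. The cause of these moves was not tested. No paired analysis was possible because each group was 1 library. The late segment held 15 haplodeficient cells.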
